A study of Mus musculus with 24 samples.

Results

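The genes described here are 10 members of the Notch pathway: the receptors Notch1, Notch2, and Notch3, the ligands Jag1, Jag2, and Dll1, and the target genes Hes1, Hey1, Heyl, and Hes6. They were chosen by name, and all 10 of the 10 were found among the 56941 genes listed. The libraries came from ChR2::tdTomato C2C12 cells, a mouse myoblast line made to express the light-gated channel channelrhodopsin-2, which fuses into contractile myotubes. The cells were differentiated for about 2 weeks on fibrin gels in medium with horse serum (10%) and the muscle growth factor IGF-1 (50 ng/ml). The 4 groups of 6 libraries each were an unstimulated control and tissues lit daily for 60 min at 1 Hz, 4 Hz, or 10 Hz. All groups share the channel, the gel, and the medium, and all derive from the same engineered line, so no group lacks the channel. The study's text also notes that tissues of all conditions, unlit ones included, twitched on their own. The study treats the 6 libraries of a group as biological replicates. Whether they came from separate cell passages is not stated, so p-values measure the spread between these tissues only.

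Notch signaling passes between touching cells. A Jagged or Delta ligand on 1 cell binds a Notch receptor on its neighbor, proteases then cut the receptor, and its intracellular part enters the nucleus and binds RBPJ. Together they switch on genes of the Hes and Hey families, which encode repressors of transcription. In skeletal muscle, Notch signaling is known for keeping satellite cells and other myogenic progenitors undifferentiated, and it declines as myoblasts fuse. Hes6 is an exception among these target genes: it antagonizes Hes1 and is known as a gene of differentiating myoblasts.

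Total estimated counts ran from 8052369 to 18159144 per library, and 13315 genes were abundant enough to be tested, all 10 members included. Levels below are counts per 1000000 (CPM) scaled by edgeR's TMM method unless TPM, transcripts per 1000000 and therefore per length, is named. The 10 myotube markers summed to between 12800 and 21200 TPM in every library. Of them, 3 were higher at 4 Hz than in the controls (27.5% of all genes tested), and 8 were lower at 10 Hz than at 4 Hz (24.4%). Acta1 and Mylpf were the largest parts of the sum (7320 and 3620 TPM in the controls), so it mostly describes the abundant genes of the list. The 7 endothelial and the 5 adipocyte markers each summed to at most 1.34 TPM, and the 6 macrophage markers to between 55.1 and 102 TPM, of which Cd68 made up nearly all. Of the endothelial genes, Tie1 and Emcn were at 0 in every library, whereas Pecam1, Tek, and Esam reached up to 0.326, 0.825, and 0.875 TPM. The leukocyte gene Ptprc reached at most 0.0309 TPM. Mitochondrial genes took 0.545 to 8.9% of the counts, and the 4 highest shares were in 1 Hz replicates 4 and 6 and 4 Hz replicates 3 and 6. Rn7sk, an RNA without a poly(A) tail, had medians of 5.265 (control), 14.1 (1 Hz), 11.98 (4 Hz), and 3.905 CPM (10 Hz), here without TMM scaling. It was thus higher in the groups in which several members below changed. The 15 histone genes listed as lacking a poly(A) tail summed to 230 to 325 TPM in the controls and 209 to 261 TPM at 1 and 4 Hz, but H1f2 and H2bc4 alone made up nearly all of this (146 and 117 TPM in the controls), so the sum describes those genes. The sample labels say that low-input samples were ribodepleted in place of poly(A) selection and do not say which, and the part of this in the results was not tested.

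In the unstimulated controls Hes6 was highest at 41.3 ± 2.57 TPM (SD, n = 6), and its lowest library (38.9 TPM) was above the highest of Hes1 (23.0 TPM). Hes1 (19.7 ± 2.71 TPM), Jag2 (15 ± 3.5), Hey1 (12.8 ± 4.33), Notch3 (10.8 ± 1.7), and Notch2 (8.39 ± 1.51) followed, and each of these overlapped with the next in its range over libraries. Jag1 (4.31 ± 0.774 TPM), Notch1 (3.91 ± 1.1), and Dll1 (2.8 ± 0.634) formed a lower set, again with overlapping neighbors, and Heyl was lowest at 0.879 ± 0.295 TPM. Notch3 was thus the most abundant receptor transcript by mean and Jag2 the most abundant ligand transcript. Hes6, the exception named above, was the most abundant of the genes listed here as targets. In bulk RNA, fewer cells of a type and less RNA per cell cannot be told apart.

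**Figure D1:**
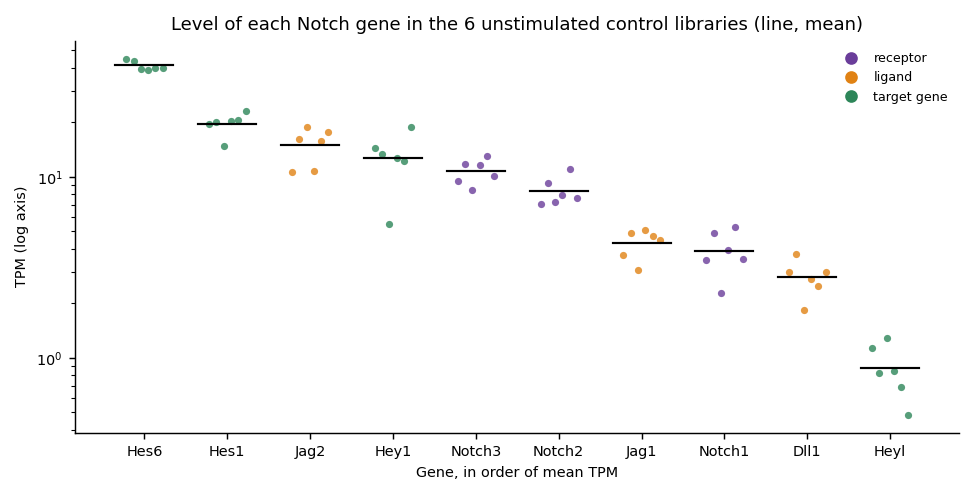
Level of each Notch gene in the 6 unstimulated control libraries, in TPM on a log axis, in order of the mean (line); point colors mark receptors, ligands, and target genes. Hes6 stands above the rest at 41.3 TPM, the ranges of Hes1 through Notch2 overlap from each gene to the next, and Heyl is lowest at 0.879 TPM.

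As described below, 4 members changed at 1 and 4 Hz, and the DNA just upstream of their start sites is shown for them. Each sequence is the 250 bases before the annotated start of the canonical transcript in GENCODE M39, read from GRCm39 in the direction of the gene, and capitals mark TGGGAA, the core of the site that RBPJ binds. The windows are chr16:29883877-29884126 (plus strand) for Hes1, chr2:136958694-136958943 (minus strand) for Jag1, chr17:32385894-32386143 (minus strand) for Notch3, and chr4:123127099-123127348 (plus strand) for Heyl.
Hes1: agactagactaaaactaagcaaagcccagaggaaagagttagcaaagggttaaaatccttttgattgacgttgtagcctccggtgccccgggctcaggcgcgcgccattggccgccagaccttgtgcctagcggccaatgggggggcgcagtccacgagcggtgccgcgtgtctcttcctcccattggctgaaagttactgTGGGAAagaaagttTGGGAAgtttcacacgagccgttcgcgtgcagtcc
Jag1: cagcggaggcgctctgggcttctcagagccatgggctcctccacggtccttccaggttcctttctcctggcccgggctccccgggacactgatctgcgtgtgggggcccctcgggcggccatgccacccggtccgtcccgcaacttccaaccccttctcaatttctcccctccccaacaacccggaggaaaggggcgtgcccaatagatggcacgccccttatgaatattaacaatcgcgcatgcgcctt
Notch3: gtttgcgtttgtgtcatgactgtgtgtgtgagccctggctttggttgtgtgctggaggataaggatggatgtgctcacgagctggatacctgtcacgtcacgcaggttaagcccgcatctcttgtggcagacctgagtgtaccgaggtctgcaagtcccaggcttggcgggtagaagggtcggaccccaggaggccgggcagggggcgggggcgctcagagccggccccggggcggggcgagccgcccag
Heyl: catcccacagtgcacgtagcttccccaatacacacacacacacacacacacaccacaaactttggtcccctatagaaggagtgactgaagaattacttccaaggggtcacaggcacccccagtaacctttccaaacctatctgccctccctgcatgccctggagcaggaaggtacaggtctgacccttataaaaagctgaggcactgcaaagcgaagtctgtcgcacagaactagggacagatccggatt

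Both strands were searched. The Hes1 window held TGGGAA at 49 to 44 and again at 35 to 30 bases before the start, and the windows of Jag1, Notch3, and Heyl held it on neither strand. Of the other 6 members, only Hey1 had a match, at 175 to 170 bases before the start on the opposite strand, where it reads TTCCCA. The same letters were found in 22.7% of 21757 protein-coding promoters of this length. CAGCTG, an E-box bound by myogenic factors such as MyoD, was found in the window of Hes6 alone among the members, at 134 to 129 bases before the start, and in 11.9% of all promoters. A match is a description of the letters in this window.

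Among the receptors, Notch3 was higher at 1 and 4 Hz, whereas no change of Notch1 or Notch2 passed the test. Notch3 (chromosome 17, 32339794 to 32385893, minus strand), a receptor known from vascular smooth muscle and from satellite cells, ranged from 41.7 to 63.5 CPM in the controls (median 56.1). It ranged from 45.2 to 116 CPM at 1 Hz (median 83.7), from 74.9 to 97.7 at 4 Hz (median 85.5), and from 54.6 to 78.0 at 10 Hz (median 68.2). All 6 libraries at 4 Hz lay above every control, whereas at 1 Hz 4 of 6 did and replicates 4 and 6 (46.3 and 45.2 CPM) lay inside the control range. The log2(fold change) was 0.54 at 1 Hz (standard error 0.179, adjusted p = 0.02 by edgeR's quasi-likelihood test) and 0.62 at 4 Hz (standard error 0.179, adjusted p = 0.0059). At 10 Hz it was 0.26 (95% interval -0.10 to 0.63, adjusted p = 0.78). The 1 Hz replicates 4 and 6 also had the highest mitochondrial shares of their group, 3.97 and 4.87%. Without the 4 libraries highest in that share the log2(fold change) at 1 Hz was 0.84 (adjusted p = 1e-05). Those 4 include replicates 4 and 6, the lowest in Notch3 at 1 Hz, so a larger value follows from leaving them out and is no support for the call. The call at 1 Hz was lost without control replicate 3 (adjusted p = 0.052), 1 Hz replicate 1 (0.063), or 1 Hz replicate 3 (0.072). On log2(TPM + 1) neither call held, with a log2(fold change) of 0.23 at 1 Hz and 0.29 at 4 Hz. On that scale the median of all genes was itself at -0.14 and -0.21, so Notch3 stood 0.37 and 0.50 above it, against 0.50 and 0.56 on the count scale.

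Notch1 (chromosome 2, 26347915 to 26406675, minus strand), the receptor best known for holding satellite cells in quiescence together with Notch2, had means of 24.3 ± 6.92, 21.6 ± 6.41, 24.1 ± 3.99, and 24.4 ± 3.84 CPM from the control to 10 Hz (SD, n = 6 each). Its log2(fold change) was -0.19, -0.03, and 0.0013 (adjusted p = 0.44, 0.92, and 1), with a 95% interval at 4 Hz of -0.40 to 0.35. Notch2 (chromosome 3, 97920800 to 98057677, plus strand) had means of 57.7 ± 10.0, 57.0 ± 19.9, 50.7 ± 6.75, and 66.0 ± 14.1 CPM in the same order. Its log2(fold change) was -0.03, -0.19, and 0.20 (adjusted p = 0.92, 0.41, and 0.88), with a 95% interval at 4 Hz of -0.57 to 0.19. The groups of both receptors overlapped at every frequency.

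Among the ligands, Jag1 rose at 1 and 4 Hz, and Jag2 and Dll1 did not pass the test in either direction. Jag1 (chromosome 2, 136923373 to 136958693, minus strand) encodes Jagged1, a ligand for all the receptors above. It ranged from 10.5 to 16.9 CPM in the controls (median 16.1), from 23.2 to 35.4 at 1 Hz (median 25.7), from 23.5 to 35.6 at 4 Hz (median 33.5), and from 11.5 to 17.1 at 10 Hz (median 15). Every library at 1 and 4 Hz was therefore above every library of the control and of 10 Hz. Its fitted level was 1.84-fold the control at 1 Hz (log2(fold change) 0.88, standard error 0.129, adjusted p = 1.1e-05) and 2.08-fold at 4 Hz (1.06, standard error 0.13, adjusted p = 4.4e-07). At 10 Hz the log2(fold change) was -0.04, with a 95% interval of -0.31 to 0.24. Both calls of Jag1 held under every alternative tried, with log2(fold changes) between 0.55 and 1.0 at 1 Hz and between 0.6 and 1.1 at 4 Hz.

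Jag2 (chromosome 12, 112871421 to 112893437, minus strand), the other Jagged ligand, stayed within 27.2 to 39 CPM over all 24 libraries. Its means were 32.6 ± 1.67, 31.3 ± 3.67, 33.0 ± 2.08, and 34.8 ± 2.95 CPM from the control to 10 Hz. The log2(fold change) was -0.06, 0.01, and 0.09, with 95% intervals of -0.22 to 0.09, -0.14 to 0.17, and -0.07 to 0.25, and on log2(TPM + 1) the value at 4 Hz was -0.33 (adjusted p over all alternatives 0.13 to 0.98). Jag1 and Jag2, ligands of the same family, thus differed in whether they passed the test at 1 and 4 Hz. Their shares among the ligands are compared below.

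Dll1 (chromosome 17, 15587276 to 15597134, minus strand), a Delta ligand that myoblasts present to neighboring progenitors, was the scarcest ligand per length in the controls. It ranged from 3.91 to 6.96 CPM in the controls (median 5.75), from 1.52 to 6.4 at 1 Hz (median 3.64), from 2.2 to 5.49 at 4 Hz (median 4.43), and from 4.4 to 11.9 at 10 Hz (median 6.11). At 1 Hz 4 of 6 libraries and at 4 Hz 2 of 6 lay below every control. Its log2(fold change) was -0.58 at both frequencies (95% intervals -1.13 to -0.03 and -1.14 to -0.01), and neither passed (adjusted p = 0.088 and 0.08). The result turned on single libraries: without 1 Hz replicate 4 Dll1 passed as lower at 1 Hz (-0.85, adjusted p = 0.016), and without control replicate 3 or 4 Hz replicate 5 it passed at 4 Hz (adjusted p = 0.047 and 0.043). It also passed at 1 Hz without the 4 libraries highest in mitochondrial share (-0.81, adjusted p = 0.035) or in Rn7sk (-0.95, adjusted p = 0.022), and at 4 Hz with only the 2 groups in the fit (adjusted p = 0.02).

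Among the target genes, Hes1 rose and Heyl fell at 1 and 4 Hz. Hes1 (chromosome 16, 29882134 to 29886643, plus strand), a repressor that oscillates in progenitors and whose upstream window with its TGGGAA matches is printed above, ranged from 10.2 to 19.5 CPM in the controls (median 16.7). It ranged from 22.7 to 37.4 at 1 Hz (median 32.3), from 22.2 to 31.1 at 4 Hz (median 28.0), and from 13.8 to 21.9 at 10 Hz (median 16.7). The libraries at 1 and 4 Hz again lay above every library of the control and of 10 Hz. The fitted level was 1.94-fold the control at 1 Hz (log2(fold change) 0.95, standard error 0.144, adjusted p = 1.6e-05) and 1.69-fold at 4 Hz (0.75, standard error 0.145, adjusted p = 1.4e-04). Both calls held under every alternative tried, and the values ran from 0.69 to 1.03 at 1 Hz and from 0.4 to 0.81 at 4 Hz, the lowest of each on the TPM scales.

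Heyl (chromosome 4, 123127349 to 123143682, plus strand), a repressor of the Hey family and a Notch target in satellite cells, moved the opposite way. Its levels were low, from 15 to 42 estimated counts per control library. It ranged from 1.41 to 3.44 CPM in the controls (median 2.2), from 0 to 1.85 at 1 Hz (median 0.844), from 0 to 0.934 at 4 Hz (median 0.503), and from 1.54 to 3.67 at 10 Hz (median 2.7). At 4 Hz every library lay below every control, and at 1 Hz 5 of 6 did. No count was found in 1 Hz replicate 6 and 4 Hz replicate 3, where a count of 0 allows up to 0.244 and 0.418 CPM (3 counts, counting error only). Summed over libraries, the estimated counts were 177 for the control, then 51, 31, and 172 as the frequency went up. The log2(fold change) was -1.49 at 1 Hz (standard error 0.411, adjusted p = 0.0058) and -2.02 at 4 Hz (standard error 0.448, adjusted p = 5.8e-04), or 2.82-fold and 4.06-fold lower. The 95% intervals, -2.35 to -0.66 and -2.96 to -1.12, are the widest among the members, and the gene was too low to be tested in the alternatives with a strict count filter or a TPM minimum.

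The remaining targets did not pass the test. Hey1 (chromosome 3, 8726956 to 8732385, minus strand), the other Hey gene, had means of 18.8 ± 6.54, 20.4 ± 4.29, 20.7 ± 4.31, and 21.6 ± 3.76 CPM from the control to 10 Hz, and its log2(fold changes) were 0.11, 0.14, and 0.20 (adjusted p = 0.69, 0.58, and 0.89). Its lowest control, replicate 3 with 7.73 CPM, was also the lowest control for 8 of the 10 members. Hes6 (chromosome 1, 91339204 to 91342103, minus strand) had means of 31.6 ± 2.84, 31.0 ± 6.06, 37.4 ± 3.88, and 34.3 ± 4.65 CPM. Its log2(fold change) was -0.03 at 1 Hz and 0.24 at 4 Hz (95% interval 0.01 to 0.46, adjusted p = 0.076), and its direction depended on the scaling. With only the 2 groups in the fit it passed at 4 Hz (0.21, adjusted p = 0.044). On log2(TPM + 1) the difference at 1 Hz was -0.25 and passed (limma, adjusted p = 0.024), and that at 4 Hz was -0.08, where the median of all genes was -0.14 and -0.21. On the same scale Hes6 was higher at 10 Hz than at 1 Hz (0.34, adjusted p = 0.0052).

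**Figure D2:**
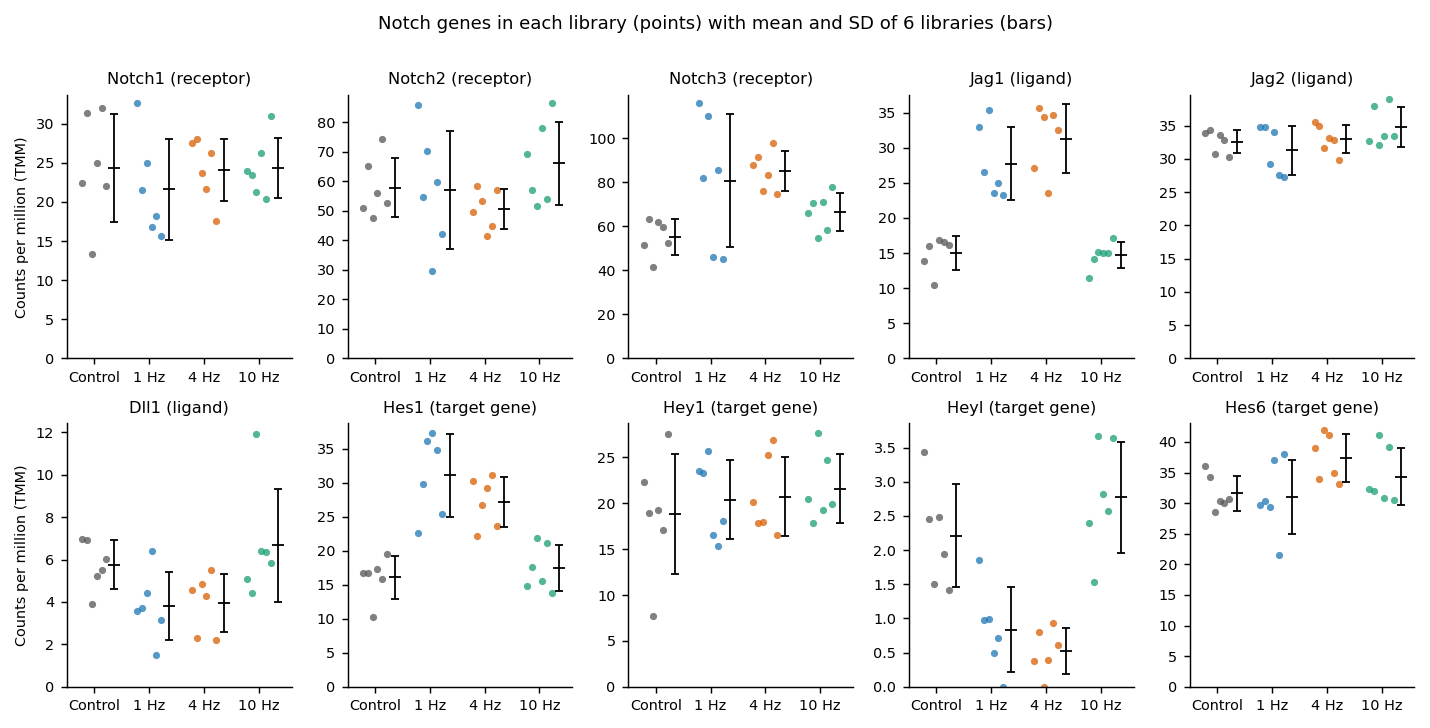
CPM of the 10 Notch genes in each of the 24 libraries (points), by group, with the mean and SD of 6 libraries beside them (black); each vertical axis starts at 0. For Jag1 and Hes1 the points at 1 and 4 Hz lie above all points of the control and 10 Hz, for Heyl those at 4 Hz lie below all of them, and 1 point of Dll1 at 10 Hz stands apart at 11.9 CPM.

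Counted together, 4 of the 10 members passed an adjusted p of 0.05 at 1 Hz, where 37.3% of the 13315 genes tested did. At 4 Hz the count was also 4, against 51.4% of all genes. The members thus changed about as often as all genes at 1 Hz and no more often at 4 Hz. By direction, 3 members were higher and 1 lower at each of the frequencies, against 19.2% of genes higher and 18.1% lower at 1 Hz and 27.5% higher and 23.9% lower at 4 Hz. The study also required a change of more than 0.5 on the log2 scale, under which the members numbered 4 and 4, against 14.9% and 25.1% of all genes. Groups that did not overlap were found for 2 members that were higher at 1 Hz (5.55% of all genes), and at 4 Hz for 3 that were higher (12.9%) and 1 that was lower (14.7%). The median log2(fold change) of the 10 was -0.03 at 1 Hz and 0.08 at 4 Hz, and that of all genes was 0.04 and 0.06. Without the 4 libraries highest in Rn7sk, Notch3, Jag1, Hes1, and Heyl were all still past the threshold, with log2(fold changes) of 0.58, 0.85, 0.82, and -1.40 at 1 Hz and of 0.65, 1.10, 0.71, and -1.71 at 4 Hz. The libraries kept still reached 17.2 CPM of Rn7sk at 1 Hz and 16.2 at 4 Hz, against at most 8.37 in the controls. Leaving out 4 libraries therefore did not remove the difference in Rn7sk, and its part was not tested. The comparisons with the control share the same 6 control libraries, so the values at 1 and 4 Hz stand side by side here and are not independent of each other.

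At 10 Hz no member passed, where 0.0376% of all genes did. Of the 10, 0 had an unadjusted p under 0.05 by edgeR's quasi-likelihood test, and DESeq2 called 0, where 1074 and 59 of the 13315 genes met these rules, so counts this low are near the background. The log2(fold changes) ran from -0.04 for Jag1 to 0.32 for Heyl. The 95% interval of Heyl, -0.40 to 1.05, was the widest, and that of Jag2, -0.07 to 0.25, the narrowest, so changes of the size seen at 4 Hz lie outside the intervals of Jag1, Hes1, and Heyl at 10 Hz but inside that of Notch3.

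**Figure D3:**
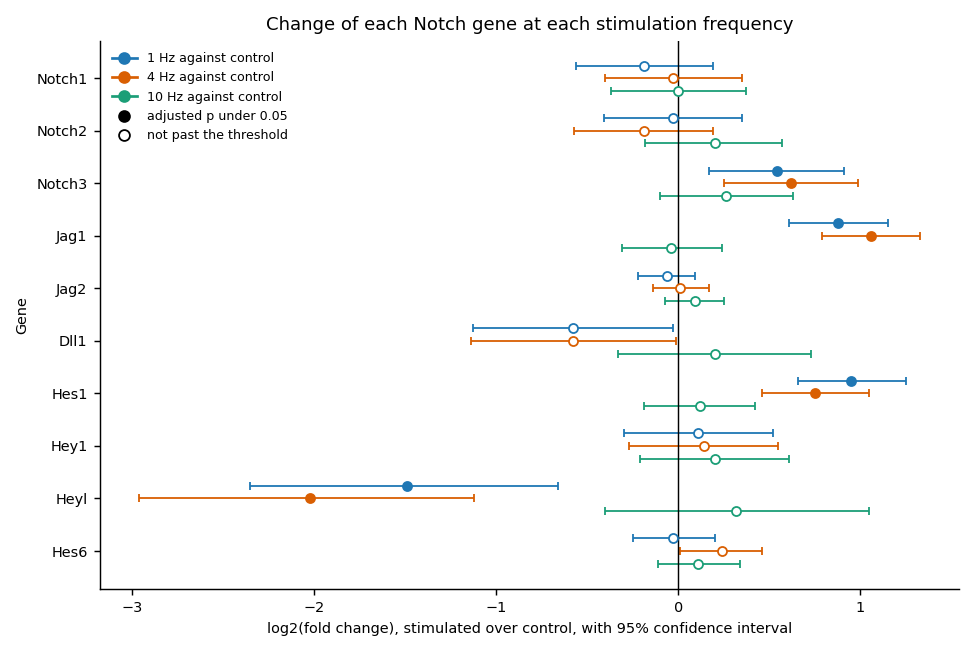
Log2(fold change) of each Notch gene at 1, 4, and 10 Hz against the control, with 95% confidence intervals; filled points passed an adjusted p of 0.05. Notch3, Jag1, and Hes1 lie to the right of 0 and Heyl to the left at 1 and 4 Hz, and every interval at 10 Hz spans 0.

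The frequencies were also compared with each other as contrasts of the same fit. Between 4 and 1 Hz, 0 members passed, as did 0.0% of all genes, with 1 member (Hes6) at an unadjusted p under 0.05 and 0 by DESeq2. Between 10 and 1 Hz 4 members passed (27.9% of all genes), 2 of them higher (14.8%) and 2 lower (13.1%). On the log2 scale Jag1 at 10 Hz differed by -0.91 (standard error 0.131, adjusted p = 1.7e-05) and Hes1 by -0.84 (adjusted p = 1.5e-04), both without overlap between the groups, as for 2.67% of all genes. Heyl was higher by 1.82 (adjusted p = 0.0019) and Dll1 by 0.78 (adjusted p = 0.033).

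Against 4 Hz, 4 members passed at 10 Hz (46.3% of all genes), again 2 higher (21.9%) and 2 lower (24.4%). Jag1 differed by -1.09 (adjusted p = 6.4e-07) and Hes1 by -0.64 (adjusted p = 0.0011), again with no overlap (8.1% of all genes). On log2(TPM + 1) the difference of Hes1 was -0.32 and did not pass (limma, adjusted p = 0.08), whereas that of Jag1 did (-0.57, adjusted p = 0.0074) and Notch2 was gained (0.59, adjusted p = 0.03). Notch2 also passed with only the 2 groups (0.41, adjusted p = 0.017) and without the 4 libraries highest in mitochondrial share (0.47, adjusted p = 0.02). Heyl was higher at 10 Hz by 2.34 (adjusted p = 1.7e-04), with every 10 Hz library above every 4 Hz library (10.8% of all genes), and Dll1 by 0.78 (adjusted p = 0.024). The higher Dll1 rests in part on 10 Hz replicate 3, at 11.9 CPM. Without it the log2(fold change) of Dll1 was 0.56 against both 1 Hz (adjusted p = 0.088) and 4 Hz (adjusted p = 0.076). The call of Dll1 was also lost without 1 Hz replicate 2, 5, or 6 against 1 Hz, and without 4 Hz replicate 2 or 6 against 4 Hz. Against 1 Hz it was lost as well with no filter (adjusted p = 0.067), with only the 2 groups (0.059), and on log2(TPM + 1) (0.34, adjusted p = 0.29), and against 4 Hz on log2(TPM + 1) (0.52, adjusted p = 0.064). Notch3 at 10 Hz lay between the control and 4 Hz and passed against neither 1 Hz (-0.28, adjusted p = 0.25) nor 4 Hz (-0.36, adjusted p = 0.1). Without the 4 libraries highest in mitochondrial share it passed against both (-0.58, adjusted p = 0.0012, and -0.42, adjusted p = 0.0049), and with only the 2 groups it passed against 4 Hz (-0.33, adjusted p = 0.0081). The libraries left out for mitochondrial share include the lowest in Notch3 at 1 and at 4 Hz, so larger differences follow from that choice.

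Within each role, the balance between members shifted at 1 and 4 Hz, while the summed TPM of the role did not pass a test. The share of a member is its TPM as a percent of the summed TPM of its role in the same library, and it does not depend on how libraries are scaled. Shares of 6 against 6 libraries were tested by exact permutation, two-sided, whose smallest possible p is 0.0022, with adjustment over 30 tests. The members of a role add up to 100%, so a rise of 1 share lowers the others.

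Notch3 made up 46.8 ± 1.77% of receptor transcripts in the controls (SD, n = 6), then 56.2 ± 3.41, 59.4 ± 3.43, and 48.7 ± 2.52% with rising frequency. The control share ran up to 49.4%, and the lowest was 50.1% at 1 Hz and 55.7% at 4 Hz, so neither group overlapped with the control (exact permutation p = 0.0022, adjusted p = 0.0093 for each). This held also for 1 Hz replicates 4 and 6, whose Notch3 level had lain inside the control range. Notch2 fell from 36.5 ± 2.36% to 30.5 ± 2.81% at 1 Hz (exact permutation, adjusted p = 0.016) and 26.4 ± 4.01% at 4 Hz (adjusted p = 0.0093). The share of Notch1 was 16.7 ± 2.19% in the controls, 13.2 ± 2.35% at 1 Hz (exact permutation, adjusted p = 0.079), and 14.2 ± 1.85% at 4 Hz (adjusted p = 0.11).

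Among the ligands, Jag1 went from 19.9 ± 4.68% of the transcripts to 33.5 ± 5.61% at 1 Hz and 33.9 ± 5.64% at 4 Hz, differences of 13.7 and 14.0 percentage points (exact permutation, adjusted p = 0.013 and 0.0093). Jag2 went from 67.3 ± 7.48% to 54.3 ± 4.96% at 1 Hz, which passed (exact permutation, adjusted p = 0.013), and to 55.6 ± 8.22% at 4 Hz, which did not (adjusted p = 0.055). At 4 Hz it passed as a share of CPM (exact permutation, adjusted p = 0.0059), and without control replicate 4 (0.035) or 4 Hz replicate 2 (0.015). It was the larger of the Jagged shares by mean in every group. Dll1 held 12.9 ± 3.39, 12.2 ± 4.27, 10.5 ± 4.1, and 15 ± 7.49% from the control to 10 Hz, with no difference past the threshold. As shares of CPM, which are not per length, Dll1 differed by -4.74 points at 1 Hz and -4.93 at 4 Hz, and both passed (exact permutation, adjusted p = 0.015 and 0.0059).

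Among the target genes, Hes1 took 26.4 ± 1.87% in the controls, 40.9 ± 7.45% at 1 Hz, and 34.3 ± 1.77% at 4 Hz, without overlap between either group and the control (exact permutation, adjusted p = 0.0093 for both). Hes6, the Hes1 antagonist, held 55.6 ± 5.26% in the controls and 43.9 ± 6.92% at 1 Hz (exact permutation, adjusted p = 0.016), and 51.0 ± 3.37% at 4 Hz (adjusted p = 0.18). Heyl fell from 1.21 ± 0.519% to 0.323 ± 0.257% and 0.192 ± 0.128% (exact permutation, adjusted p = 0.013 and 0.0093). At 1 Hz the call of Hes6 was lost as a share of CPM (exact permutation, adjusted p = 0.056) and that of Heyl without the 4 libraries highest in mitochondrial share (0.055), and at 4 Hz Hes6 passed without control replicate 6 (0.035). At 10 Hz no share of the 10 passed, and the largest difference was 2.16 points, for Dll1. In all, 7 shares passed at 1 Hz and 5 at 4 Hz.

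**Figure D4:**
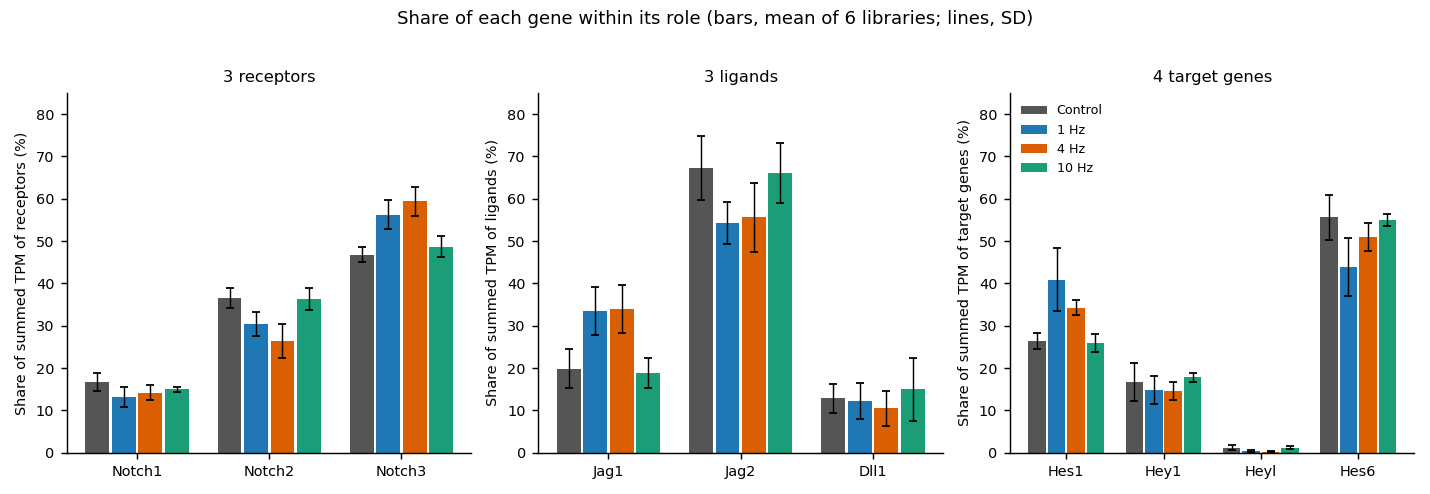
Share of each Notch gene in the summed TPM of the 3 receptors, 3 ligands, or 4 target genes, in percent, as the mean of 6 libraries (bars from 0) with SD (lines), by group. Notch3, Jag1, and Hes1 take larger shares at 1 and 4 Hz than in the control and at 10 Hz, and Notch2 and Jag2 smaller ones by mean.

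The summed levels of the roles overlapped between the groups. The receptors summed to 23.1 ± 4.16, 24.6 ± 10.9, 22.6 ± 4.24, and 26.1 ± 5.66 TPM from the control to 10 Hz. The ligands summed to 22.1 ± 3.37, 20.5 ± 4.24, 21.2 ± 5.23, and 23.6 ± 1.65 TPM, and the target genes to 74.8 ± 7.63, 80.0 ± 8.68, 76.8 ± 8.73, and 80.2 ± 7.6 TPM. None of the 9 differences from the control passed (exact permutation, adjusted p = 0.85 to 0.87), with the largest at 5.42 TPM, for the targets at 10 Hz. On log2(TPM + 1) the median of all genes was -0.14 at 1 Hz and -0.21 at 4 Hz. An unchanged sum in TPM is therefore not an unchanged level relative to other genes. Hes6 alone held 55.6% of the target sum in the controls.

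The wider pathway was described with 88 other genes in 6 lists, of which 71 were tested. At 1 Hz 12 were higher and 21 lower, or 33 of 71 against 37.3% of all genes (19.2% higher and 18.1% lower). At 4 Hz 13 were higher and 24 lower, or 37 of 71 against 51.4% of all genes (27.5% higher and 23.9% lower), so the total at 4 Hz was near the background. The same background applies to each list below, and with so few genes in a list its count is a description only. Their median log2(fold change) was -0.07 and -0.08, against 0.04 and 0.06 for all genes. At 10 Hz 0 passed by edgeR's test, with 11 of 71 at an unadjusted p under 0.05 and 2 called by DESeq2, where 1074 and 59 of all 13315 genes were. With a log2(fold change) over 0.5 as well, 14 passed at 1 Hz and 19 at 4 Hz, against 14.9% and 25.1% of all genes.

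Of 10 genes for the proteases that cut the receptor, 4 were higher and 3 lower at 4 Hz (27.5% and 23.9% of all genes), and 2 and 3 at 1 Hz (19.2% and 18.1%). The 4 that rose at 4 Hz, Psen2, Ncstn, Aph1b, and Psenen, encode subunits of the γ-secretase, and the 3 that fell, Furin, Adam10, and Adam17, encode the proteases of the other cleavage steps. Aph1b has a near-identical copy in mice, Aph1c, so its value is uncertain. Ncstn and Psenen, which encode nicastrin and PEN-2, went from 57.5 ± 1.43 to 69.0 ± 3.51 CPM (log2(fold change) 0.26, adjusted p = 0.0018) and from 40.1 ± 2.92 to 53.9 ± 5.99 CPM (0.43, adjusted p = 0.002) at 4 Hz. Furin, which cuts the receptor on its way to the surface, fell from 79.0 ± 7.97 to 52.1 ± 6.08 CPM (-0.60, adjusted p = 3.1e-05). Adam10, which cuts it after the ligand has bound, fell from 65.0 ± 2.79 to 51.1 ± 6.22 CPM (-0.35, adjusted p = 0.0032). For the genes Ncstn, Psenen, Furin, and Adam10 the groups did not overlap at 4 Hz in CPM. The rises depended on the scale. In TPM, Ncstn went from 33.1 ± 1.8 to 31.0 ± 3.07 and Aph1b from 7.86 ± 0.836 to 6.59 ± 1.09. Psen2 went from 9.34 ± 1.08 to 9.74 ± 2.27 TPM and Psenen from 120 ± 8.02 to 131 ± 17.9 TPM. The median of all genes at 4 Hz was -0.21 on log2(TPM + 1). Furin, Adam10, and Adam17 had lower means in TPM too.

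Of 8 genes that add sugars to the receptor, 1 was higher and 3 lower at 4 Hz, a total near the 51.4% of all genes. Lfng, the fringe enzyme that tunes which ligands a receptor answers to, rose from 11.1 ± 1.23 CPM to 15.3 ± 1.92 and 15.1 ± 0.592 CPM at 1 and 4 Hz (0.45 and 0.43, adjusted p = 7.2e-04 and 6.4e-04). Its TPM differed less, at 11.1 ± 1.49 in the controls, 12.6 ± 2.53 at 1 Hz, and 11.9 ± 1.9 at 4 Hz. Poglut1, which adds the first glucose, fell to 23.8 ± 2.14 CPM from 31.3 ± 3.08 (-0.39, adjusted p = 8.1e-04), and Gxylt2, which extends it with xylose, fell to 1.19 ± 0.243 from 2.29 ± 0.595 CPM (-0.95, adjusted p = 0.0028), with overlapping groups.

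Of 16 genes for ubiquitin ligases, adaptors, and endocytosis, 3 were higher and 6 lower at 4 Hz, where 51.4% of all genes changed. Fbxw7, whose product marks the intracellular part of the receptor for degradation, had the largest change of the named genes of this list. It went from 71.0 ± 6.89 CPM in the controls to 36.0 ± 5.69 at 1 Hz and 33.9 ± 3.35 at 4 Hz (-0.98 and -1.07, adjusted p = 3.9e-08 and 6.9e-09), with every library below every control. Mib1, the ligase that ligand-bearing cells need to pull on the receptor, fell at 4 Hz from 83.4 ± 7.18 to 59.1 ± 8.01 CPM (-0.50, adjusted p = 6.8e-04), and at 1 Hz it was at 70.4 ± 11.9 CPM (-0.25, adjusted p = 0.079). Numbl, a relative of the Notch inhibitor Numb, and Dtx3, of the Deltex family of ligases, rose at 4 Hz by 0.51 (adjusted p = 1.2e-04) and 0.56 (adjusted p = 1.2e-05). Their TPM went from 17.8 ± 1.34 to 21.0 ± 4.23 and from 31.8 ± 2.84 to 35.9 ± 7.47. Numb itself was lower at 4 Hz, from 28.9 ± 2.64 to 23.0 ± 3.99 CPM (-0.32, adjusted p = 0.011), with overlapping groups.

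Of 24 nuclear factors, 3 were higher and 10 lower at 4 Hz (27.5% and 23.9% of all genes), and 5 and 8 at 1 Hz (19.2% and 18.1%). Rbpj, the DNA-binding partner of the receptor, rose from 131 ± 9.09 CPM in the controls to 192 ± 25.3 and 181 ± 18.3 CPM at 1 and 4 Hz (0.54 and 0.47, adjusted p = 1.5e-05 and 5.1e-05), with no overlap in CPM. As TPM it was at 38.8 ± 3.26, 49.8 ± 13.1, and 42.9 ± 8.89 in the same order, and both groups overlapped with the control. Rita1, whose product carries RBPJ out of the nucleus, rose from 9.56 ± 0.898 to 13.7 ± 1.74 CPM at 4 Hz (0.51, adjusted p = 2.7e-04), but in TPM it was at 12.7 ± 2.24 and 12.9 ± 0.886. Kat2a, an acetyltransferase, fell from 47.7 ± 3.72 to 24 ± 2.54 CPM at 1 Hz and 22.7 ± 1.4 at 4 Hz (-0.99 and -1.07, adjusted p = 2.3e-10 and 4.6e-11). Hdac2, a deacetylase found in repressor complexes, changed by -0.35 at 4 Hz (adjusted p = 9.7e-05).

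Of 8 other genes that Notch is known to regulate, 2 were higher and 2 lower at 4 Hz, again near the 51.4% of all genes. Bcl2, which protects cells from death, rose from 5.88 ± 1.05 to 10.4 ± 1.75 CPM (0.81, adjusted p = 2.8e-05), and Myc, a growth regulator, from 61.8 ± 4.96 to 95.6 ± 17.8 CPM (0.63, adjusted p = 0.0073), with overlapping groups. Ccnd1, which encodes cyclin D1, fell from 121 ± 14.7 to 82.1 ± 4.28 CPM (-0.56, adjusted p = 3.4e-05), and Snai1, a repressor of the Snail family, from 52.3 ± 13.9 to 36.2 ± 3.91 CPM (-0.53, adjusted p = 0.0027), again with overlap. Of the other receptors and ligands, 5 were tested and 0 passed at 4 Hz, Notch4 at 0.824 ± 0.253 CPM in the controls among them (0.36, adjusted p = 0.36). The ligand Dll4 (0.181 ± 0.104 CPM) and the target Hey2 (0.475 ± 0.192 CPM) were under the filter, and the target Hes5 had no count in any library.

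**Figure D5:**
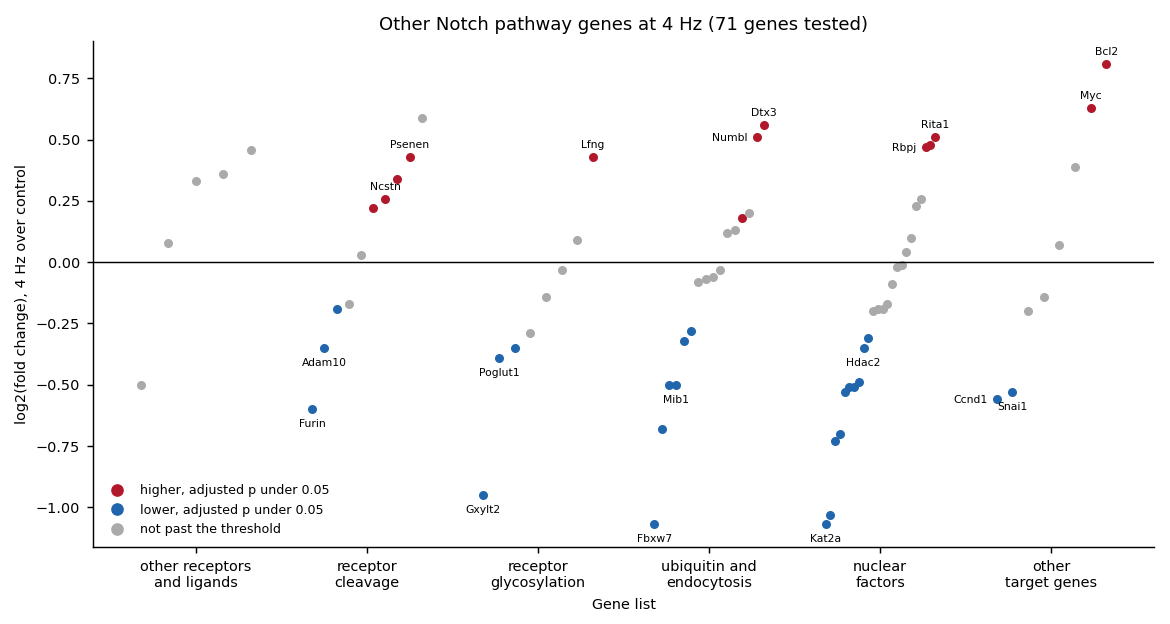
Log2(fold change) at 4 Hz against the control of the 71 other Notch pathway genes tested (points), by list; red and blue points passed an adjusted p of 0.05 as higher and lower, grey points did not, and 19 genes are named. In each list except other receptors and ligands, points that passed lie on both sides of 0, and Fbxw7 and Kat2a are lowest at -1.07.

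Markers of undifferentiated reserve cells, the C2C12 cells that stay unfused, moved in both directions with these genes. Pax7, the defining marker of satellite cells, changed by -1.58 at 1 Hz and -1.53 at 4 Hz (adjusted p = 4e-07 and 3.6e-07), whereas Spry1, which satellite cells use to return to quiescence, rose by 0.98 and 1.31 (adjusted p = 3.1e-06 and 2.2e-08). Of the 7 reserve cell markers tested, 2 were higher and 1 lower at 1 Hz (37.3% of all genes changed), and 5 and 1 at 4 Hz (51.4%). Their summed level ran from 793 to 870 TPM in the controls, 660 to 853 at 1 Hz, 642 to 881 at 4 Hz, and 849 to 900 at 10 Hz. Itga7, Sdc4, and Gpx3 made up most of it (333, 255, and 179 TPM in the controls), and Pax7 and Spry1 very little (1.63 and 1.88 TPM). The sum therefore describes the abundant genes of the list and not the number of reserve cells. The 8 proliferation markers summed to between 19.7 and 49.4 TPM in every library, with 1 higher at 1 Hz (19.2% of all genes) and 1 higher (27.5%) and 3 lower (23.9%) at 4 Hz. Their part in the changes of the Notch genes was not tested.

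For the member with the smallest p at 4 Hz, Jag1, and the receptor highest in the controls, Notch3, the genes with the most similar pattern were sought. Those most like Jag1 over the 24 libraries, by the root mean square difference of z-scored log2 CPM, were Mertk (0.345), Klf7 (0.351), and Cited2 (0.378), against a median of 1.35 over all other genes tested. Mertk had means of 7.4, 12.2, 13.9, and 8.26 CPM from the control to 10 Hz, and Cited2 of 84.4, 209, 226, and 89.2 CPM. Those most like Notch3 were Cdh13 (0.429), Vcan (0.433), and L1cam (0.436), against a median of 1.41, and all had their lowest mean in the controls.

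In GENCODE M39, 8 of the 10 members (all but Jag2 and Heyl) lie over part of a gene of the other strand. The libraries were directional, but how counting used the strand is not stated, so reads from such partners cannot be told apart here.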

How the data were processed

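RNA-seq of 24 muscle tissues (6 per group, grouped by the sample labels) was analysed. The authors aligned directional libraries to GRCm39 with the nf-core pipeline, and deposited gene-level estimated counts (made with Salmon per the labels, with STAR and BWA 0.7.12-r1039 also named) and TPM values. The estimated counts as deposited were rounded to whole numbers, of which 7 of 240 member values needed rounding (tolerance 0.001). Genes were filtered with filterByExpr (minimum count 10, total 15) and scaled by TMM, and 13315 were fitted over all 24 libraries with edgeR 4.0.16 (quasi-likelihood F test, robust, R 4.3.3, limma 3.58.1), with Benjamini-Hochberg adjustment over all genes and a threshold of 0.05. The study used DESeq2, which was run as an alternative (version 1.42.0). The biological coefficient of variation was 14.8%. Totals of 8052369 to 18159144 counts limit the precision of low genes such as Heyl. Deposited TPM gave levels between genes and shares within a role, tested by exact permutation. The fit was tested on simulated data.

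The members and gene lists were chosen with earlier results of these data known. Genes of the other pathway lists were named by rule: in each list, those past the threshold at 4 Hz with the smallest p, up to 2 in each direction. Psen2, Aph1b, Adam17, Numb, Notch4, Dll4, Hey2, Hes5, and the markers were named after their values were seen. Alternatives covered the tool, scaling, filter, TPM scales with pseudocounts of 1 and 0.1, the replicate block, only the groups compared, and leaving out each library. The 4 libraries highest in mitochondrial share and the 4 highest in Rn7sk were left out as alternatives added after seeing the data. Promoters were read from GRCm39 with GENCODE M39, in which 98.9% of the gene IDs were found.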

Additional observations from a re-analysis of the deposited data

Results flagged for a closer look

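Of 40 groups of member values (10 genes in 4 groups), 1 held a library far from the rest, where chance alone flags about 1 in 20 groups. Dll1 reached 11.9 CPM in 10 Hz replicate 3, and the other 5 libraries of that group ran from 4.4 to 6.4 CPM, so that the gap to the nearest library was 0.733 of the whole range and above Dixon's 95% critical value for 6 samples. That library was also the highest of its group for 5 of the 10 members and the lowest for 3. Whether the value belongs to the tissue or to the library was not tested.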

How the results depend on the processing

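Jag1, Hes1, and Heyl kept their direction and stayed past the threshold at 1 and 4 Hz under every alternative that gave them a value. Heyl was not tested on the TPM scales or under the strict filter. The call of Notch3 at 1 Hz was lost with no filter (adjusted p = 0.086), with only the groups compared (0.073), on both TPM scales, and without some single libraries, and that at 4 Hz was lost on the TPM scales. Depth limits Heyl and Dll1 most. With 1 library left out at a time, members past the threshold numbered 3 to 5 at 1 Hz, 4 to 5 at 4 Hz, 0 at 10 Hz, 3 to 4 for 10 against 1 Hz, and 3 to 4 for 10 against 4 Hz. Other pathway genes numbered 26 to 34, 34 to 40, and 0, and shares 7 to 8, 5 to 7, and 0 to 1 (Notch1 without control replicate 3). Over the 1 and 4 Hz comparisons the threshold of 0.5 took the other pathway genes from 33 to 14 and from 37 to 19, and DESeq2 called 2 of them at 10 Hz. On both TPM scales the members counted fell from 4 to 2 at 4 Hz (Jag1 and Hes1, with Notch3 lost and Heyl not tested) and from 4 to 2 for 10 against 4 Hz (Jag1, and Notch2 as a gained call, with Hes1 and Dll1 lost and Heyl not tested), and without the 4 libraries highest in mitochondrial share 1 member (Hes6) passed between 4 and 1 Hz.

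The replicate numbers do not pair the samples: over 36 same-numbered pairs of libraries the correlation of deviations ran from -0.332 to 0.2424, 3 were over 0.1, and 0 libraries were closest to their own number. With the replicate block, edgeR called 4 members at 1 Hz, 4 at 4 Hz, and 0 at 10 Hz, and 31, 38, and 0 other pathway genes. Sign flips of same-numbered pairs called 0 shares at 1 Hz and 0 at 4 Hz, with adjusted p of 0.094 or more. With 6 libraries per group there are few possible sign patterns, so the smallest possible p of this test is high. After adjustment over 30 tests a share could hardly pass, so this alternative cannot decide whether the shares differ.

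Values near 0 changed sign in some alternatives, none of them past the threshold in the reported fit. At 4 Hz Jag2 was -0.01 with DESeq2, RLE size factors, or only the groups compared, and -0.03 with no filter. At 10 Hz Notch1 was -0.0011 with DESeq2, -0.0018 with RLE, -0.0033 with upper quartile scaling, -0.01 with no filter, -0.0012 with the strict filter, and -0.0023 with only the groups compared. Dll1 between 4 and 1 Hz was -0.01 with RLE and with no filter. With upper quartile scaling Notch1 was 0.01 at 4 Hz and -0.01 for 10 against 4 Hz. On log2(TPM + 1) and log2(TPM + 0.1), Hey1 was -0.06 and -0.06 at 1 Hz, Jag2 -0.33 and -0.35, Hey1 -0.13 and -0.13, and Hes6 -0.08 and -0.09 at 4 Hz, and Jag1 0.03 and 0.04 at 10 Hz. Dll1 was -0.18 and -0.22 and Hey1 -0.07 and -0.08 between 4 and 1 Hz, and Hes6 0.17 and 0.18 for 10 against 4 Hz. Without the 4 libraries highest in Rn7sk, Notch2 was 0.07 at 1 Hz and Hey1 -0.01 between 4 and 1 Hz. Without the 4 highest in mitochondrial share, Notch2 was 0.24 at 1 Hz, Notch1 0.06 at 4 Hz, Notch3 -0.16 and Jag1 -0.02 between 4 and 1 Hz, Notch2 -0.04 and Hey1 -0.03 for 10 against 1 Hz, and Notch1 -0.05 and Hey1 -0.04 for 10 against 4 Hz. At 10 Hz the share of Notch2 differed by 0.112 points with Notch4, Dll4, Hey2, and Hes5 added, and shares of CPM by 0.785 for Jag2 and 0.447 for Heyl.

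With 1 library left out at a time, these log2(fold changes) spanned 0: at 1 Hz Notch2 (-0.18 to 0.09), Hey1 (-0.05 to 0.24), and Hes6 (-0.12 to 0.06), at 4 Hz Notch1 (-0.17 to 0.06), Jag2 (-0.02 to 0.04), and Hey1 (-0.04 to 0.27), and at 10 Hz Notch1 (-0.12 to 0.1), Jag1 (-0.11 to 0.03), and Dll1 (-0.04 to 0.29). Between 4 and 1 Hz they were Notch3 (-0.04 to 0.21), Dll1 (-0.16 to 0.25), and Hey1 (-0.05 to 0.1), and for 10 against 4 Hz Notch1 (-0.05 to 0.09) and Hey1 (-3.5e-05 to 0.16). Of the shares, Dll1 at 1 Hz spanned 0 (-1.92 to 0.316 points), and so did at 10 Hz Notch2 (-0.712 to 0.636), Jag1 (-2.44 to 0.416), Jag2 (-3.0 to 1.32), Dll1 (-0.8 to 3.19), Hes1 (-0.78 to 0.269), Hey1 (-0.609 to 2.17), Heyl (-0.157 to 0.148), and Hes6 (-1.97 to 1.24). The causes were not tested.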
